A study of Caenorhabditis elegans with 15 samples.

Results

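Among 17138 genes measured in early embryos of the nematode Caenorhabditis elegans, 101 genes with no name beyond their sequence name were abundant in 2- to 4-cell embryos, were still there 1 h later and had lost most of their signal by 4 h. They were chosen by their measured levels: a 0 h mean of at least 7 on the log2 scale, a 1 h mean less than 1 below it, and a 4 h mean at least 2 below it. On the array 6720 genes had only a sequence name and 589 of these reached the 0 h limit. Of the 589, 101 met all limits, 106 met the 0 h and 4 h limits but had fallen by 1 or more within the first hour, and 382 were less than 2 below their 0 h level at 4 h. Because the 0 h, 1 h and 4 h arrays chose the genes, a fall somewhere between 1 h and 4 h is given by construction, and those values are described here without a test.

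Wild-type N2 hermaphrodites received injections of double-stranded RNA targeting 3 genes, mex-1, lit-1 and pal-1, and were kept at room temperature for more than 12 h. Embryos of 2 to 4 cells were then cut out and held at room temperature, and total RNA was taken at 0, 1, 2, 3 and 4 h for Affymetrix C. elegans arrays, 3 arrays (A, B and C) per time and 15 in all. Every embryo, including those at 0 h, came from an injected mother, no untreated embryos were analysed here, and feeding was on E. coli OP50. MEX-1 is an RNA-binding protein of the germline blastomeres, LIT-1 is the Nemo-like kinase of the Wnt pathway, and PAL-1 is the caudal-type homeodomain protein of posterior lineages. The series' title points to the fate of the MS lineage, a founder of mesoderm.

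Labels and values of the second time need care. The titles place arrays B and C of the second time at 1 h, whereas their time tags read 2 h and 3 h; the titles were followed, as in the rule for choosing the genes. Across all probe sets 1 h A and 1 h C correlated at 0.981, against 0.871 to 0.882 for 1 h C with the 3 h arrays. Array 1 h B stood apart, at 0.914 with 1 h A and 0.850 to 0.878 with the 2 h arrays, while other arrays of the same time correlated at 0.962 to 0.985, and it was left out of every 1 h mean. The main fit kept 1 h B, so its distance from its partners enters the spread behind every SE and p-value given here. On 1 h B vit-4, a yolk protein gene of the adult intestine, read 8.58 against 3.06 and 3.15 on 1 h A and 1 h C, and the 22 measured genes of an adult and sperm list had a median of 4.66 against 3.42 to 3.91 on the other arrays. Its hybridisation controls averaged 11.70, above the 8.64 to 11.10 of the others. Beyond the alternatives given below, such as the fit without 1 h B, the part of these differences in the results was not tested.

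Eggs of all animals are loaded with maternal mRNA, and the early embryo runs on this store before its own genome takes over. The store is then cleared. Deadenylation by the CCR4-NOT complex, decapping and exonuclease digestion are the general routes, and sequence elements read by RNA-binding proteins set the time at which each transcript goes. In C. elegans many maternal mRNAs are lost from somatic cells within the first divisions and persist longer in the germline precursor. In RNA from whole embryos, fewer cells holding a transcript and less of it per cell cannot be told apart.

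The label "maternal" rested on the 0 h level alone, since no oocyte or unfertilised sample was analysed here. The rule used that level, so it cannot serve as a check of the label. One gene went against the label: F10G2.4 read 6.28, 7.83 and 7.47 on the 0 h arrays, and 11.16, 11.16 and 11.21 on 1 h A, B and C. Its 1 h level was thus 15.8-fold above its 0 h level, whereas the next largest 1 h rise was 0.90 on the log2 scale (C45H4.14). In 9 of the 101 genes the 1 h mean exceeded the 0 h mean by more than 0.5, and in 25 by any amount. Of the 101 genes, 100 matched a protein-coding gene of the RefSeq gene table by their Entrez identifier; T28D6.6 carried 2 identifiers. The table gives them no product names, so no function is attached to any of them here.

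At 0 h the genes spanned a wide range of levels. In 16 of them the mean was at least 10, in 51 it lay between 8 and 10, and in 34 between 7 and 8. R05H5.3 was the brightest, with 12.14, 12.42 and 12.31 on the 0 h arrays, followed by D2005.3 at 11.53, C43E11.12 at 11.52 and Y37D8A.4 at 11.26. The faintest was Y67H2A.2, whose 3 arrays at 0 h read 6.96, 6.85 and 7.23. In 16 genes at least 1 of the 0 h arrays was under 7. At 0, 2, 3 and 4 h the median SD over the genes ran from 0.37 (2 h) to 0.44 (4 h), with n = 3 arrays each. Steps under about this size lie within the spread of single genes. The 1 h arrays are not in this range. With 1 h B among them they varied more in many genes, up to an SD of 2.89 in F21F3.6.

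The median level of the 101 genes went from 8.47 at 0 h through 8.33, 5.96 and 5.09 to 4.93 at 4 h. Array by array it was 8.35, 8.60 and 8.70 at the start, 8.25 and 8.57 on 1 h A and C, 5.74, 6.00 and 6.00 on the 2 h arrays, 4.99, 4.80 and 5.35 an hour later, and 5.04, 4.90 and 4.96 on the last arrays. The 3 h and 4 h medians overlapped and the others did not, apart from 0 h and 1 h. The second hour held most of the loss: the median step from 1 h to 2 h was -2.07, followed by -0.68 from 2 h to 3 h and -0.18 from 3 h to 4 h. The whole fall from 0 h to 4 h ran from -2.03 to -7.01, with a median of -3.46.

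**Figure D1:**
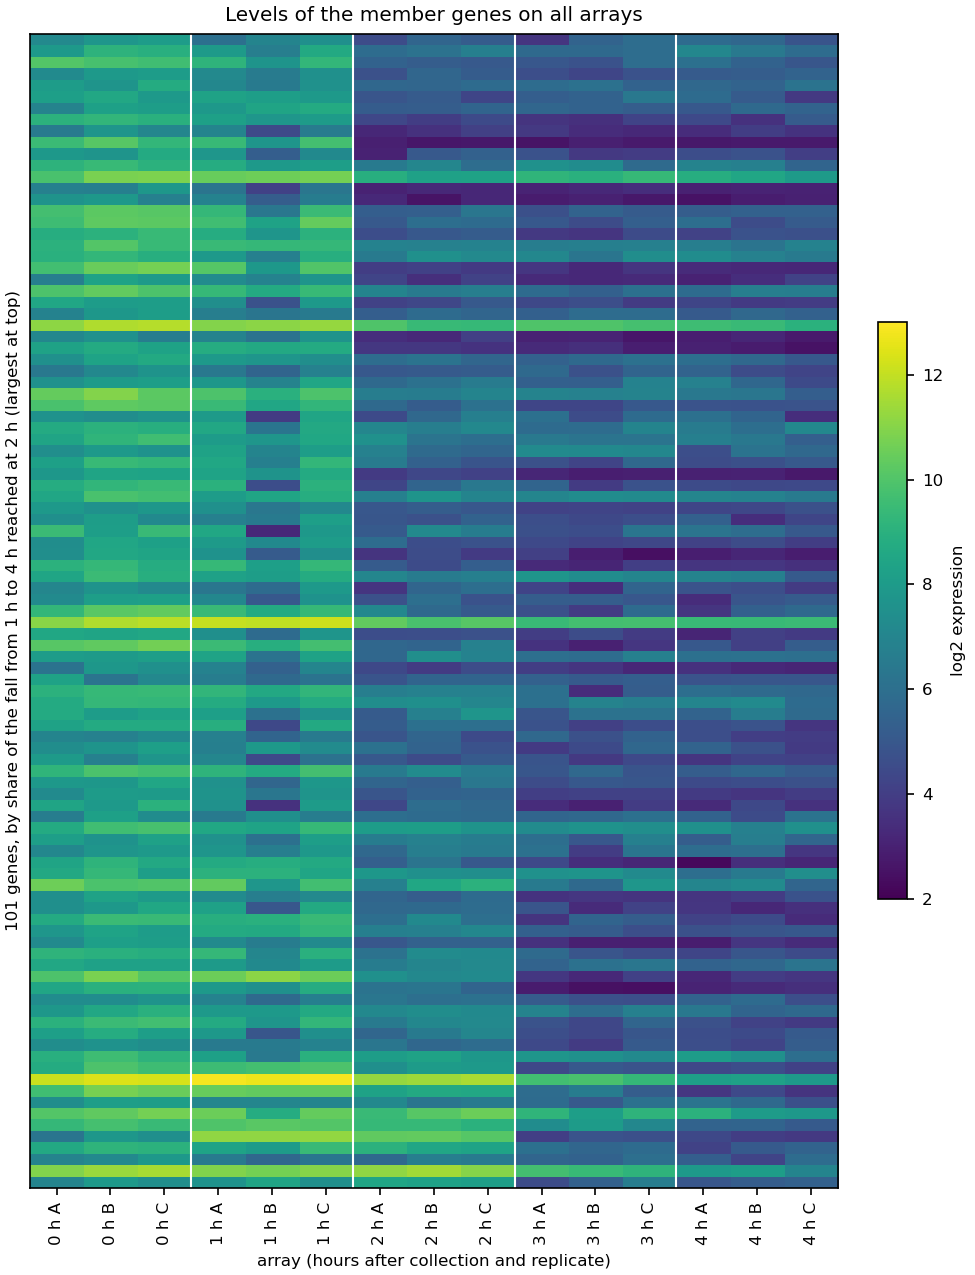
Log2 expression of the 101 genes (rows) on the 15 arrays (columns, by hour and replicate letter), with genes sorted by the share of their fall from 1 h to 4 h that was complete at 2 h, largest at the top. Most rows darken between the 1 h and 2 h columns, rows near the bottom stay bright to 2 h or 3 h, and the 1 h B column is darker than its neighbours, with a median of 7.20.

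**Figure D2:**
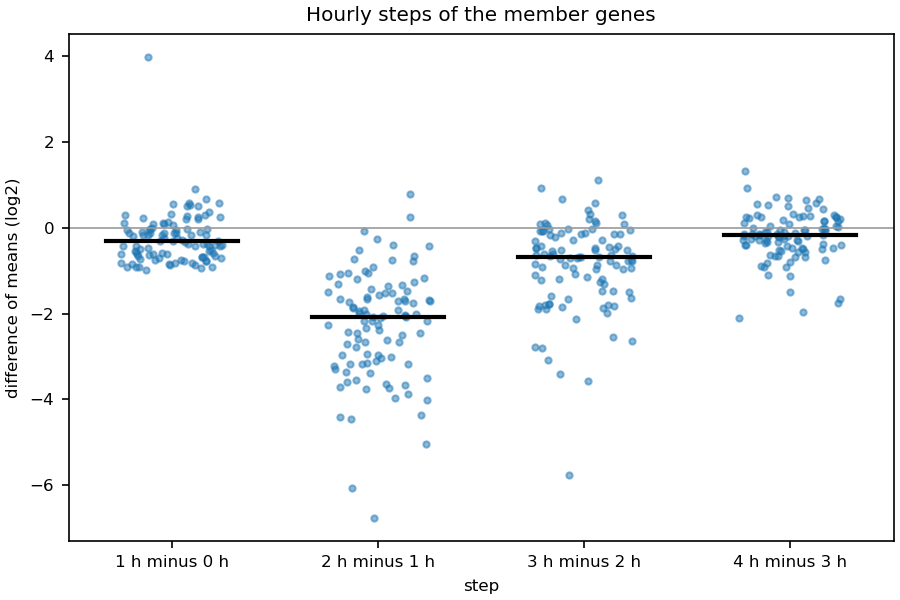
Differences between the means of successive times for the 101 genes (points, log2), with the median of each step as a bar; the 1 h mean is of arrays A and C. The medians lie at -0.32, -2.07, -0.68 and -0.18, and the point near 4 in the first step is F10G2.4. The first step is bounded from below by the rule.

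The hour of the largest fall sorted the genes. In 82 the step from 1 h to 2 h was the largest of the last 3, in 18 it was the step from 2 h to 3 h, and in F53F8.3 it was the step from 3 h to 4 h. The step from 1 h to 2 h was also the largest in 84 of the 106 sequence-named genes lost within 1 h. Among the 2102 genes of any name with a 0 h mean of at least 7, it was the largest in 1023. By 2 h, 80 of the 101 genes had completed at least 50% of their fall from 1 h to 4 h and 53 at least 75%, whereas 7 had completed under 25%. By 3 h, 68 had completed at least 90%. The 2 h mean lay below the 1 h mean in 99 genes. In 93 of the 101 (92.1%) all 3 arrays at 2 h lay below both 1 h A and 1 h C. The shares were 19.1% of all 17138 genes and 46.1% of the 2102 genes of any name with a 0 h mean of at least 7. The rule used the 1 h arrays, so this comparison carries no test.

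Some transcripts went from abundant to near or under background within that single hour. F14H3.6 read 9.50, 10.14 and 9.28 at 0 h and 9.39 and 9.70 on 1 h A and C, then 2.98, 2.66 and 2.72 at 2 h. It then stood at 2.77 at both 3 h and 4 h. A mark of background was set at 3.71, the highest value of the 15 control probe sets for Bacillus transcripts on any array, and F14H3.6 lay under it from 2 h on. Y52B11A.8 gave 10.10 and 10.01 on 1 h A and C and 3.98, 4.14 and 3.86 at 2 h, 66.6-fold lower, and stood at 3.28 at 4 h. A second probe set of Y52B11A.8 had means of 8.51, 7.29 and 2.98 at 0, 1 and 2 h. Its fall in the first hour was thus past the 1 h limit. T03F6.3 gave 8.82 and 8.71, then 3.78, 3.77 and 3.61, 32.9-fold lower. In all 3 genes the 2 h arrays lay far below the 1 h arrays with no overlap. On 1 h B the first pair were lower than on A and C (7.75 for F14H3.6 and 7.86 for Y52B11A.8), while T03F6.3 differed little (8.62).

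The next largest falls of that hour were those of K08E4.2 (-4.46), T05B9.1 (-4.41) and T05F1.2 (-4.37). T05B9.1 settled above background, at 5.62 at 2 h and 5.24 at 4 h, whereas K08E4.2 and T05F1.2 went on falling, as the next step shows. At 2 h only 5 of the 101 genes were at or under the background mark: F14H3.6, F55A11.8, Y65B4BL.3, R144.10 and F44E2.10, of which F55A11.8, Y65B4BL.3 and R144.10 are named here after their values were seen. The number was 18 at 3 h and 18 at 4 h, with 15 genes in both. Values near the mark are compressed by the RMA summary, so folds down to it are uncertain.

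**Figure D3:**
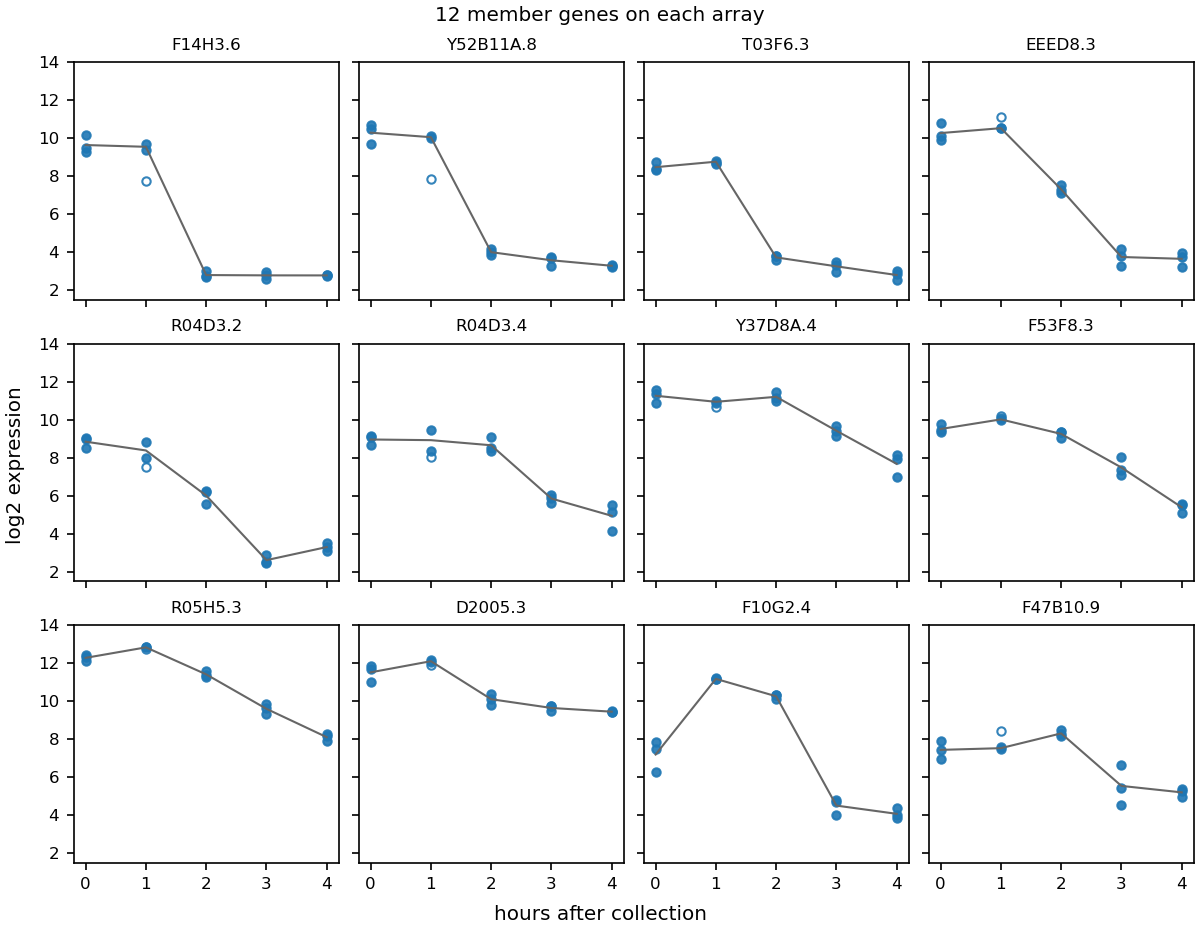
Log2 expression of 12 of the genes on every array against hours after collection; filled points are single arrays, the open point is 1 h B, and lines join the time means with 1 h as the mean of A and C. F14H3.6, Y52B11A.8 and T03F6.3 drop by 2 h, EEED8.3 and R04D3.2 by 3 h, Y37D8A.4, F53F8.3 and R05H5.3 go on falling to 4 h, D2005.3 levels off at 9.45, and F10G2.4 rises before it falls.

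The step from 2 h to 3 h was open to a test, as neither time entered the 3 limits that chose the genes. Both times did enter the choice of each gene's probe set, made by the mean over all 15 arrays. Of the 101 genes, 21 (20.8%) were lower at 3 h at an adjusted p under 0.05 (limma over all 22548 probe sets, Benjamini-Hochberg) and 0 were higher; at an unadjusted p under 0.05 the counts were 36 lower and 2 higher, against 942 lower and 867 higher of all 17138 genes and 240 and 225 of the 2102 with a 0 h mean of at least 7. The backgrounds were 2.09% called lower among all 17138 genes, 4.09% among genes of any name with a 0 h mean of at least 7, and 0.858% called higher among all genes. In 50 genes (49.5%) all 3 arrays at 3 h lay below all 3 at 2 h, against 7.29% of all genes and 16.8% of those with a 0 h mean of at least 7. The required fall between 1 h and 4 h contains this step, so a share above the background follows in part from the choice. The called falls ran from -1.09 to -5.76 with a median of -1.89, and in 7 of the 21 genes the 3 h mean was at or under the background mark, so that the size of the fall is uncertain.

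When 1 h B and 1 h C were placed by their time tags, in the 2 h and 3 h groups, 0 of the 101 genes and 7 of all genes were called lower; arrays centred on the hybridisation controls gave 11 of the 101 and 206 of all genes. Of the called differences over all genes 70.9% were lower, a split that became 58.4% after centring on ribosomal protein genes and 92.4% after centring on the hybridisation controls.

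F10G2.4 made the largest step. It read 10.33, 10.35 and 10.11 at 2 h and 4.02, 4.80 and 4.69 at 3 h, a difference of -5.76 ± 0.33 (SE, adjusted p = 4.8e-07 by limma) or 54.2-fold. It was thus high at 1 h and 2 h and ended at 4.07, below its 0 h level of 7.20. EEED8.3 held 10.54 and 10.51 on 1 h A and C, fell to 7.51, 7.12 and 7.28 at 2 h and to 3.80, 3.27 and 4.15 at 3 h, a step of -3.56 ± 0.28 (adjusted p = 8e-06 by limma). Its loss was spread over 2 h about evenly, 9.34-fold and then 11.8-fold, with no overlap between the 1 h, 2 h and 3 h arrays. At 4 h EEED8.3 was under the background mark, at 3.64.

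R04D3.2 and R04D3.4 are neighbours in the gene table with 0 protein-coding genes between them, and both made their largest step here. R04D3.2 read 6.19, 6.26 and 5.57 at 2 h and 2.85, 2.51 and 2.45 at 3 h, a step of -3.40 ± 0.29 (adjusted p = 1.5e-05 by limma). R04D3.4 stayed at its early level for longer, with 8.37 and 9.48 on 1 h A and C and 9.09, 8.51 and 8.37 at 2 h, before 6.06, 5.63 and 5.86 at 3 h, a step of -2.81 ± 0.39 (adjusted p = 0.00099 by limma). They thus shared the hour of largest loss but not the second hour, in which R04D3.2 fell by 2.38 and R04D3.4 by 0.27. A second probe set of R04D3.2 gave -1.65 for the tested step, with an adjusted p of 0.11 by limma.

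F47B10.9 and Y37D8A.4 were the only genes of the 101 with a 2 h mean above the 1 h mean. F47B10.9 read 7.60 and 7.47 on 1 h A and C, 8.49, 8.29 and 8.16 at 2 h and 4.54, 5.42 and 6.67 at 3 h, a step of -2.77 ± 0.44 (adjusted p = 0.0029 by limma). Its 3 h arrays were widely spread, with an SD of 1.07, and none reached the 2 h level. Y111B2A.2 fell from 8.35, 8.70 and 8.59 to 5.87, 6.61 and 5.25, a step of -2.64 ± 0.34, and T22D1.5 from 5.66, 5.55 and 6.82 to 3.62, 3.03 and 3.75, a step of -2.55 ± 0.38. T22D1.5 was higher again at 4 h, with a mean of 4.80, after a 3 h mean of 3.47 that lay under the background mark. F19B10.2 fell by 3.08 ± 0.27 and ZC155.4 by 2.12 ± 0.30, but in both a second probe set lay near background from 0 h on, at 3.04 and 2.66, and did not show the fall.

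The other named genes called lower were F40A3.3 (-1.99), T11F8.1 (-1.85), R05H5.3 (-1.82), Y37D8A.4 (-1.79), F53F8.3 (-1.77), T05F1.2 (-1.49) and K08E4.2 (-1.09). C45H4.14, Y42H9B.3, Y51H7C.3, F46F11.8 and T21B10.4, named here after their values were seen, fell by 1.14 to 1.89. Of the 21 calls, 14 held in each of the 6 fits that left out 1 of the 2 h or 3 h arrays. The exceptions among the named genes were F40A3.3, lost without 2 h B, 2 h C, 3 h A or 3 h B, T05F1.2, lost without 2 h A, 2 h C, 3 h A or 3 h B, T11F8.1, lost without 2 h B, 3 h B or 3 h C, and K08E4.2, lost without any 1 of the 6 other than 2 h A. Y51H7C.3, F46F11.8 and T21B10.4 also lost their calls without some arrays. In the genes already at background by 2 h, such as F14H3.6 (-0.02 ± 0.39), this step could show no fall.

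**Figure D4:**
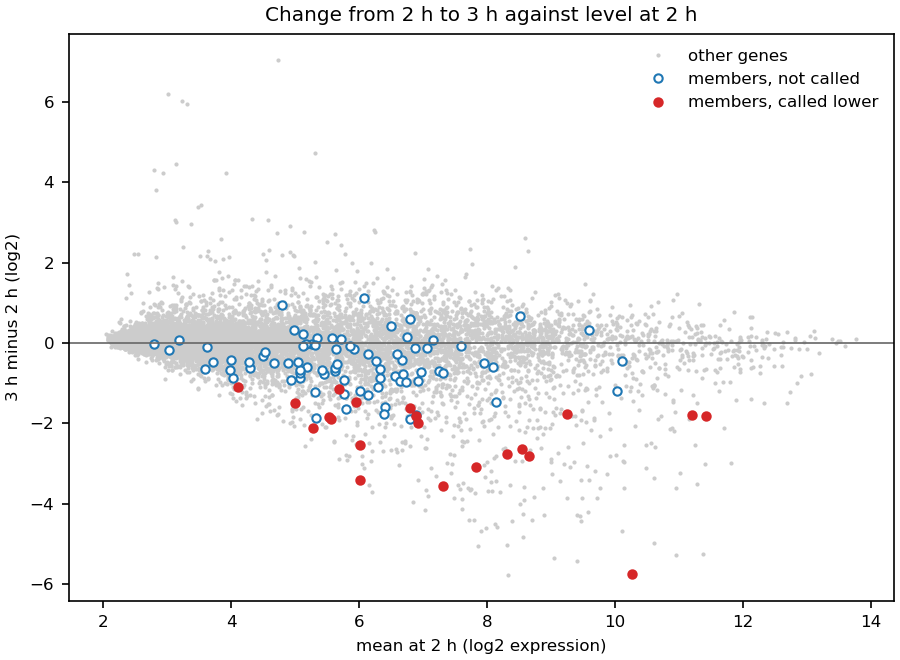
Difference between the 3 h and 2 h means (log2) against the 2 h mean for every gene (grey), the 80 member genes not called (open blue) and the 21 called lower (red, adjusted p under 0.05 by limma). The called genes lie between -1.09 and -5.76 and no member gene was called higher.

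A late group fell in both of the last hours, although R05H5.3 and Y111B2A.2 had also fallen from 1 h to 2 h (-1.42 and -1.85). Y37D8A.4 was flat for the first 2 h, with 10.90, 11.34 and 11.55 at 0 h and 11.16, 11.46 and 11.01 at 2 h. It then read 9.70, 9.40 and 9.16 at 3 h and 7.94, 8.12 and 6.97 at 4 h. The tested step was -1.79 ± 0.27 (adjusted p = 0.0022 by limma), and its second probe set gave -1.77, also past the threshold. This is the only called gene whose second probe set was called too; 4 of the 21 called genes had one.

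F53F8.3 was less flat before 2 h, with steps of 0.51 in the first hour and -0.77 in the second. It then went from 9.38, 9.35 and 9.03 at 2 h through 7.34, 8.04 and 7.07 at 3 h to 5.52, 5.55 and 5.10 at 4 h. Its last step, -2.09, was its largest. R05H5.3, the brightest gene, read 12.84 on 1 h A and 12.84 on 1 h C, then 11.26, 11.40 and 11.60, 9.65, 9.83 and 9.33, and 8.15, 8.28 and 7.90 at 2, 3 and 4 h. Its 3 steps were -1.42, -1.82 and -1.49, with no overlap between successive times, so the loss was steady and 26.6-fold in all. Y111B2A.2 lost 1.97 in the last hour after its called step, and ended at 3.74, 4.45 and 3.64.

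In 7 genes the last hour brought a fall of at least 1. Beside F53F8.3, Y111B2A.2, Y37D8A.4 and R05H5.3 these were F26H9.5, F43G9.13 and Y67H2A.2, and in these last 3 the 3 h mean had been above the 2 h mean. F26H9.5 read 6.83, 5.82 and 5.57 at 2 h, 7.27, 7.21 and 7.09 at 3 h and 4.66, 6.18 and 5.74 at 4 h. The 3 h arrays were above all those of 2 h and 4 h, yet the step of 1.12 ± 0.43 did not pass the threshold (adjusted p = 0.33 by limma). The 3 h mean exceeded the 2 h mean in 14 genes, by more than 0.5 in F26H9.5, F01F1.11, F43G9.13 and K06H7.7 (the last named after its values were seen). F01F1.11 gave 0.68 ± 0.28 (adjusted p = 0.4 by limma), and it and F26H9.5 were the 2 genes higher at an unadjusted p under 0.05.

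Loss was not complete in all genes. At 4 h, 48 of the 101 genes still had a mean of at least 5 and 8 of at least 7, as high as the limit set for 0 h. D2005.3 was the brightest at that time, at 9.44, 9.42 and 9.50 at 4 h against 12.05 and 12.18 on 1 h A and C, and 75.3% of that fall was complete at 2 h. C43E11.12 read 9.56, 9.45 and 9.03 at 4 h after 9.99, 9.43 and 9.35 at 2 h, so that its 2 h and 4 h arrays overlapped. F01F1.11 ended at 8.44, C07D8.6 at 8.32 and R05H5.3 at 8.11. C07D8.6 was slow, at 9.45, 10.12 and 10.51 at 2 h and 9.20, 8.15 and 9.17 at 3 h, a step of -1.19 ± 0.49 that did not pass the threshold (adjusted p = 0.38 by limma). In 33 genes the 4 h mean was above the 3 h mean.

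Array 1 h B differed from its partners in most of the 101 genes. It lay below both 1 h A and 1 h C in 80 (79.2%), above both in 7, and its median difference from their mean was -0.89. Among all genes with a 0 h mean of at least 7, 74.3% lay below both, and among all 17138 genes 31.3%. F21F3.6 was farthest off, at 3.25 on 1 h B against 8.55 and 7.88 on A and C, and its later arrays read 5.09, 7.17 and 6.61 at 2 h. H04M03.3 (4.37 against 8.90 and 8.69), T28D9.16 (4.62 against 9.04 and 9.07), T28D6.6 (3.93 against 7.99 and 8.47) and W05F2.6 (3.58 against 7.55 and 8.02) followed, and in all 5 the 1 h B value was under the 2 h mean as well.

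In 46 genes 1 h B was nearer to the 2 h mean than to the mean of A and C, and 26 genes lay within 0.5 of the latter. EEED8.3 (11.09 against 10.54 and 10.51) and F47B10.9 (8.43 against 7.60 and 7.47) were higher on it. With 1 h B in the 1 h mean, 72 of the 101 genes would still have met the 1 h limit. Without that array the test of 3 h against 2 h called 28 of the 101 genes lower, the same 21 among them, and 431 of all genes; W05F2.6 (-1.88) then passed, at an adjusted p of 0.043 by limma.

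**Figure D5:**
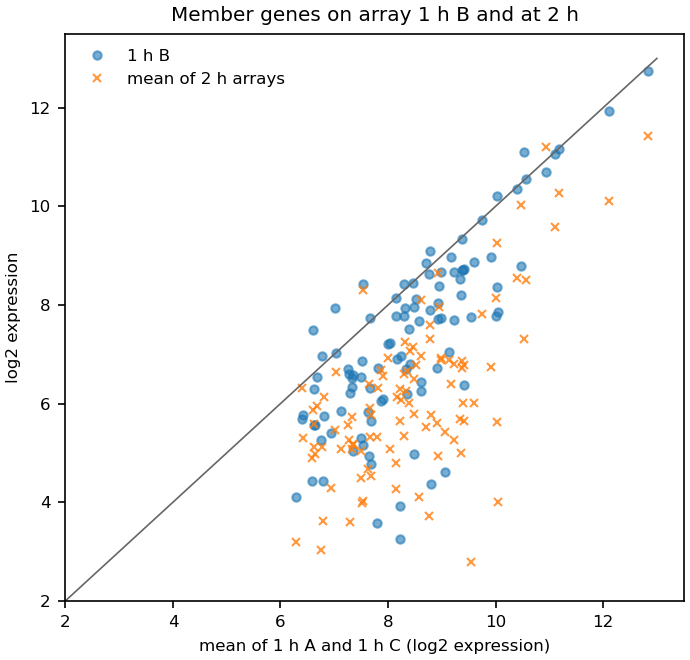
Log2 expression of the 101 genes on array 1 h B (circles) and as the mean of the 2 h arrays (crosses) against the mean of 1 h A and C, with the line of equality. On 1 h B, 80 genes lay below both of the other 1 h arrays, and the 2 h means lay lower than the 1 h means in 99.

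The probe sets behind the values limit some of them. For 63 of the genes the probe set was of the type specific to a single transcript, for 36 of a type whose probes are shared by similar transcripts (suffix _s_at), and for T13F2.2 and M151.7 of a type open to cross-hybridisation (_x_at). A second probe set existed for 19 genes. In 15 of these it was at least 2 lower at 4 h than at 0 h, in 8 it met all 3 limits, and in 16 its 3 h mean was below its 2 h mean. In some the second probe set fell by more than 1 within the first hour. These were Y52B11A.8 (8.51 to 7.29), D2030.7 (6.84 to 5.77) and T07C4.3 (4.91 to 3.65). W08E12.7 (7.80 to 6.27) and F33D4.4 (5.67 to 4.65), named after their values were seen, did so too. Those of F19B10.2 and ZC155.4 were at or under the background mark at 0 h.

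Few of the genes lay next to each other. Beside R04D3.2 and R04D3.4, the pairs with at most 4 protein-coding genes between them were D2005.3 and D2005.7, with 1 between, D2005.7 and F30F8.1, with 2, and F01G4.6 and C08F8.3, with 2. In these 3 pairs every gene made its largest step from 1 h to 2 h, as did 82 of the 101 genes. D2005.3 and D2005.7 differed in where they ended, at 9.45 and 3.84.

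Genes lost within the first hour served as the nearest comparison. The 106 sequence-named genes of that kind started at a median of 8.42 and reached 6.42 after 1 h, 4.75 after 2 h, 4.37 after 3 h and 4.44 after 4 h. Their median steps were -1.76, -1.53, -0.19 and -0.04, against -0.32, -2.07, -0.68 and -0.18 for the 101 genes, the first of which the rule sets apart. In the tested hour 0 of the 106 were called lower (11 at an unadjusted p under 0.05 in limma), compared with 21 of the 101. At 2 h 16 of the 106 were already at or under the background mark, against 5 of the 101, and had little room to fall. All 3 arrays at 3 h lay below all 3 at 2 h in 20 of the 106 (18.9%). The counterparts were 50 of the 101 and 7.29% of all genes. The differences between the 106 and the 101 were not tested.

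Genes with a full name that met the same 3 limits numbered 208 and served as a second comparison. Their medians were 8.62, 8.47, 6.92, 6.04 and 5.54 from 0 h to 4 h. At 3 h 36 of the 208 (17.3%) were called lower, against 2.09% of all genes. At an unadjusted p under 0.05 by limma 74 were lower, against 942 of all 17138 genes. The required fall contains this step, so a share above the background follows in part from the choice of these 208 genes. Among them were 8 genes of the maternal list, pos-1 and oma-1, which encode CCCH zinc-finger RNA-binding proteins, nos-2, a Nanos homologue of the germline, mei-2, a subunit of the meiotic katanin, cdc-25.1, a cell-cycle phosphatase, the B-type cyclins cyb-2.1 and cyb-2.2, and sip-1, whose product is a small heat shock protein. Of the 50 maternal genes, 32 reached 7 at 0 h, and 19 of those met the 4 h limit but had fallen by 1 or more within the first hour.

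Of the whole maternal list 4 genes were lower at 3 h than at 2 h: sip-1 (-3.61 ± 0.52), cyb-2.2 (-1.99 ± 0.40), nos-2 (-1.89 ± 0.17) and cyb-2.1 (-1.69 ± 0.37), and 0 were higher. These 4 are 8.0% of the 50 genes. The backgrounds were 2.09% of all genes and 4.09% of those with a 0 h mean of at least 7. At an unadjusted p under 0.05 in limma 8 were lower, against 942 of all 17138 genes. The median of the list was -0.24, against 0.04 over all genes and -0.68 for the 101. The count was 8 without 1 h B, and 2 without 2 h B or without 3 h B. Sip-1 fell in each of the last 3 h, at 14.01, 13.87, 10.96, 7.35 and 5.23 from 0 h to 4 h. By 3 h nos-2 was under the background mark, at 2.52, so the size of its fall is uncertain.

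For general mRNA decay, with subunits of the CCR4-NOT deadenylase, the decapping enzyme and the exosome, 29 genes were measured. By limma 0 were called in the tested hour, near the background of 2.09% lower and 0.858% higher, and 2 were lower and 2 higher at an unadjusted p under 0.05, with a median of 0.13. Only edc-3, an enhancer of decapping, met the 3 limits itself, at 7.34 at 0 h and 5.19 at 4 h. The adult and sperm list likewise gave 0 calls among 22 measured genes, with 0 at an unadjusted p under 0.05.

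The course of F10G2.4 can be set beside the list of early zygotic genes, of which 12 of 14 were measured. At 3 h 5 of the 12 (41.7%) were called lower, against 2.09% of all genes. Pes-10, among the first genes transcribed in somatic blastomeres, had means of 2.66, 9.92, 7.85, 2.80 and 2.59 from 0 h to 4 h. Vet-1 (-5.36 ± 0.35), ceh-51 (-5.26 ± 0.52), a homeobox gene of the MS lineage, vet-6 (-4.68 ± 0.30) and sdz-1 (-1.55 ± 0.34) were the others. F10G2.4, at 7.20, 11.18, 10.27, 4.51 and 4.07, differed from all 5 in its level at 0 h, where they read 2.66 to 4.19.

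The 3 limits cut through a continuous range. Just inside the 0 h limit were Y67H2A.2, C49C3.7 and F44E2.10 at 7.01, 7.06 and 7.09, and just outside M18.3, C27H6.9 and C44B9.3 at 7.00 (rounded up), 6.99 and 6.97. At 1 h Y5F2A.4, D2030.7 and T07C4.3 were 0.98, 0.94 and 0.92 below 0 h, whereas Y4C6A.3, Y110A2AR.1 and ZK632.4, at 1.03, 1.06 and 1.06, were left out. At 4 h F42A10.5, F40F8.1 and F01F1.11 were 2.03 below 0 h, and C34C12.8, C45G9.2 and C37C3.1, at 2.00 (rounded up), 2.00 and 1.99, were not taken. F40F8.1 shows how near some members are to the spread: its 4 h arrays read 8.06, 7.53 and 5.96 against 8.95, 9.57 and 9.13 at 0 h.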

How the data were processed

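RNA from 15 embryo samples was measured on 1-colour arrays. The authors' deposited table held log2 values for 22625 probe sets on each array. They come from RMA, according to the submitters' processing notes, and its version is not given in the sources used here. RMA corrects background, normalizes between arrays and compresses low values. Array medians ran from 3.17 to 3.42. The number of arrays limits the precision.

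Without the 77 controls, 22548 probe sets remained. The platform annotation gave 1 symbol to 20810 of them, several to 843 and none to 895, and 20701 were matched by Entrez identifier to the WBcel235 gene table, which changed 0 symbols. A gene was represented by its probe set with the highest mean over all 15 arrays, among those with its symbol alone. Coordinates are left out because the annotation names no genome build.

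The 5 times were fitted together on all 15 arrays, 1 h B included, with limma 3.58.1 (lmFit, eBayes, R 4.3.3). Benjamini-Hochberg adjustment ran over all 22548 probe sets. Levels are means and differences are log2, with the model's SE. Replicates are called independent in the labels with no mention of mothers or days, so the p-values reflect only how these samples vary, possibly for technical reasons. Letters A, B and C showed no evident pairing of the samples: deviations of same-letter arrays correlated at -0.31 to 0.34 (median 0.03). Arrays of other letters gave -0.36 to 0.41 (median 0.004). Such correlations cannot show how the samples were prepared.

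The member genes, the lists and the tests were chosen with earlier results of these data known. Named were the 10 brightest genes at 0 h, the 10 with the largest fall from 1 h to 4 h, the 10 with the largest called fall from 2 h to 3 h with no overlap, the 6 with the largest fall from 1 h to 2 h and from 3 h to 4 h, the 5 farthest off on 1 h B, and the 3 on each side of each limit. Naming by protein identity was not done, as protein sequences were not used here. The script was tested on simulated data with known falls from 2 h to 3 h, in probe sets whose mean over these 2 times was above 6. It recovered 8% of falls of 1, 58% of falls of 2, 94% of falls of 3 and 96% of falls of 4, with 5 false calls. The median of the 101 genes was below that level, at 5.96 at 2 h and 5.09 at 3 h, and recovery at lower levels was not tested. A gene that was not called may therefore have changed, above all by about 1. Members outside that rule are named only where a count was small or 2 genes were neighbours, after their values were seen. Alternatives covered the 1 h arrays, normalization, filter, probe set choice, limits, replicate block and single arrays.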

Additional observations from a re-analysis of the deposited data

How the results depend on the processing

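The 21 calls at 3 h against 2 h became 0 by the time tags of 1 h B and 1 h C and 11 with arrays centred on hybridisation controls (the 16 named ones became 0 and 10), and otherwise ran from 16 to 28. With the replicate block 20 were called, all among the 21; K08E4.2 was the call lost. The median step, -0.68, was -0.21 by the tags and -1.16 with hybridisation controls, which moved the median of all genes to -0.44. The step from 1 h to 2 h, -2.07, was -3.14 with ribosomal protein genes, which moved the median of all genes to -1.11, -1.75 with 1 h B in the mean, and -2.35 to -1.96 with 1 array left out; that from 3 h to 4 h, -0.18, turned to 0.077 with hybridisation controls. The 4 maternal list calls became 8 without 1 h B, 7 with low probe sets left out, 7 with ribosomal protein genes, 0 by the tags, and 2 to 4 with 1 array left out. The rule gave 67 genes with a 0 h limit of 8, 64 with a 1 h limit of 0.5, 60 with a 4 h limit of 3, and 229 with ribosomal protein genes (75 of the 101 among them); hybridisation controls gave 128, of which 58 were among the 101. These scalings moved the median of all genes from 0 h to 4 h to -1.33 and -0.86. Over 17 alternative settings, 680 values of the 40 named genes were recomputed. Only the 16 named genes called lower had a call to lose, and 43 of their values lost it. Beyond these, 1 value gained a call and 0 changed sign past the threshold. Why these values moved was not tested. Small steps are limited by 3 arrays a time, and levels near the background mark of 3.71 by the compression of low values.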
